A study of Rattus norvegicus with 18 samples.

Results

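Among annotated kidney transcripts of appreciable level that were listed for both untreated strains of rat, 158 had values for the Wistar-Kyoto (WKY) and the spontaneously hypertensive (SHR) rats and none for treated SHR. They carry Ensembl transcript IDs (ENSRNOT) and had a mean deposited value of at least 5 over the 12 WKY and SHR libraries. They were 158 of the 687 Ensembl transcripts listed for WKY and SHR and not for treated SHR, of 4005 transcripts listed for the 2 strains, and of 6214 listed in the series. The member nearest the threshold had a mean of 5.00, and the nearest transcript outside it had 4.98.

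The libraries were made from kidney tissue after depletion of ribosomal RNA. WKY rats, a normotensive strain, received double distilled water for 10 weeks, and SHR, an inbred model of essential hypertension, received the same. The third group, SHR that received isoliensinine (a plant alkaloid found in lotus) for 10 weeks at a daily dose of 5 mg/kg, served here only to show which transcripts its files list. A transcript that is not listed there has no value for treated SHR, which is no measure of its level in them. Each group had 6 libraries, listed as separate samples. The labels give no ages. Strain background and hypertension differ together between WKY and SHR and cannot be told apart, and in bulk tissue fewer cells of a type and less RNA per cell cannot be told apart either.

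A gene can give several transcripts through different start sites, splicing and 3′ ends, so the level of 1 transcript reflects both the output of its gene and the share of that output that goes to this form. The kidney is a mixture of filtering, tubular, vascular and immune cells, and inbred strains of rat differ in the sequence of many genes that these cells use. The files do not pair transcripts with genes. Of the 158 IDs, 0 matched the RefSeq gene table for rat (assembly GRCr8). Genes, chromosomes and exons are therefore not given, no sequence is shown, and the kidney label could not be checked against marker genes.

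The values are the authors' normalized abundances, whose scale is not named in the files, and the depth behind them is unknown. They are called values below, and log2 values are log2(value + 1). The list of 4005 had been selected for strain differences: with an offset of 0.01 in place of 1, 99.4% of it differed by at least 1 on the log2 scale, as did 152 of the 158 members. The direction, size and overlap of the strain differences are therefore descriptions of a selected list and were not tested. The 12 libraries summed to between 15382 and 18096 over the 4005 listed transcripts, of which the members held 31.8% to 38.1%. Within a strain, the correlation of log2 values between libraries across the 158 members, which are not independent replicates, was 0.74 to 0.89 in WKY and 0.77 to 0.92 in SHR. WKY replicate 1 and SHR replicate 3 most often lay towards the other strain, and the numbers of members without overlap are given with and without them.

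Of the 158 transcripts, 81 had a higher mean log2 value in SHR and 77 in WKY. Those higher in SHR had a median log2 difference of 1.23, with sizes from 0.81 to 4.47. Those higher in WKY had a median of -1.59, with sizes from 0.87 to 6.13. Over all 4005 listed transcripts the medians were 0.82 for those higher in SHR and -0.84 for those higher in WKY, and over the 492 of them with a mean of at least 5 they were 1.56 and -1.64. Here and below, the 4005 and the 492 include the 158 members. A log2 difference of at least 2 was seen for 19 members higher in SHR, beside 3.70% of the 4005 listed transcripts in that direction. It was seen for 20 members higher in WKY, beside 4.29% of the 4005. These shares are given for scale only, because a low level limits the difference on this log2 scale and the 4005 include many low transcripts.

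As a ratio of strain means, the differences were mostly moderate in both directions. Among members higher in SHR, the SHR mean was less than 2 times the WKY mean for 26, between 2 and 4 times for 36, between 4 and 10 times for 12, and at least 10 times for 6, and 1 was listed at 0 throughout WKY. Among members higher in WKY, the corresponding numbers were 12, 45, 6 and 11, and 3 were listed at 0 throughout SHR. The median ratio was 2.16 for members higher in SHR and 2.55 for members higher in WKY, leaving out those listed at 0.

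**Figure D1:**
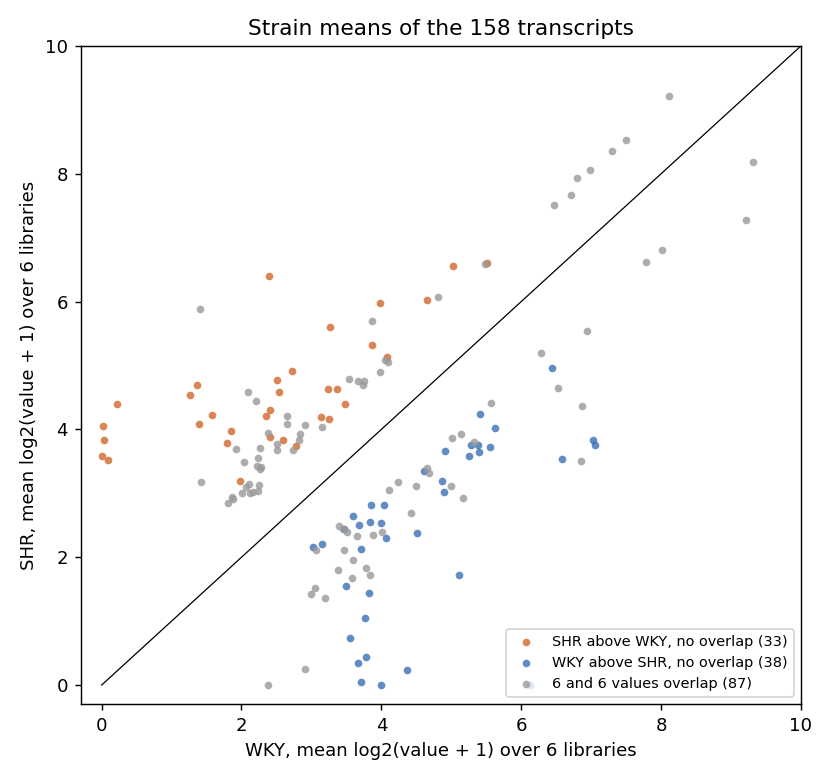
Each point is 1 of the 158 transcripts, with its mean log2(value + 1) over 6 WKY libraries on the horizontal axis and over 6 SHR libraries on the vertical axis. Orange points (33) have all SHR values above all WKY values, blue points (38) the reverse, and grey points (87) overlap. The empty band along the line of equal means follows from the selection of the list.

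In 71 of the 158 transcripts, or 44.9%, the 6 SHR and the 6 WKY values did not overlap, where 28.3% of the 4005 listed transcripts, and 35.6% of the 492 of them with a mean of at least 5, had no overlap. All SHR values lay above all WKY values for 33 members, beside 12.8% of the 4005 listed transcripts. All WKY values lay above all SHR values for 38 members, beside 15.6% of the 4005. Without WKY replicate 1 the total was 89, without SHR replicate 3 it was 82, and without both it was 101. Leaving out any library can only keep or raise this number. The share of the 4005 after the same removals is not given, so the rise describes neither the members nor these libraries in particular.

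On the log2(value + 1) scale, the largest difference without overlap among members higher in SHR belonged to ENSRNOT00000004762, a rank that depends on the offset. With an offset of 0.1 its log2 difference was 6.45, below the 6.78 of ENSRNOT00000038660, which was listed at 0 throughout WKY. By the ratio of strain means, which was 123 here, other members with WKY values near 0 reached up to 1047. Its SHR values had a lowest of 15.3, a median of 19.5 and a highest of 28.4, and its WKY values had 0.0157, 0.144 and 0.360. The lowest SHR value was 42.5 times the highest WKY value, and the log2 difference was 4.19, with SDs of 0.31 in SHR and 0.18 in WKY (n = 6 each). The transcript was thus above 0 in every library. On this log2 scale the strain levels lay far apart relative to the spread within either strain. The offset of 1 compresses WKY values near 0, so the WKY SD does not show their relative spread.

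The most abundant member higher in SHR without overlap was ENSRNOT00000009462. Its SHR values had a lowest of 65.2, a median of 102.5 and a highest of 114, against 28.2, 48.8 and 61.5 in WKY. The strains were separated by a narrow margin, the lowest SHR value being 1.06 times the highest WKY value. The log2 difference of 1.08 compared with SDs of 0.30 in SHR and 0.41 in WKY (n = 6 each).

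ENSRNOT00000049573 had the largest difference among members higher in WKY. Its WKY values had a lowest of 32.8 in replicate 1, a median of 80.8 and a highest of 92.9, and it was listed at 0 in all 6 SHR libraries. An exact 0 in such files can be a failed estimate, so no ratio was computed.

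The most abundant member higher in WKY without overlap was ENSRNOT00000031418. Its WKY values ranged more widely than those of SHR, with a lowest of 54.3, a median of 139 and a highest of 277, against 8.44, 12.9 and 16.9 in SHR. The lowest WKY value was 3.22 times the highest SHR value. The log2 difference was -3.30, with SDs of 0.81 in WKY and 0.31 in SHR (n = 6 each).

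**Figure D2:**
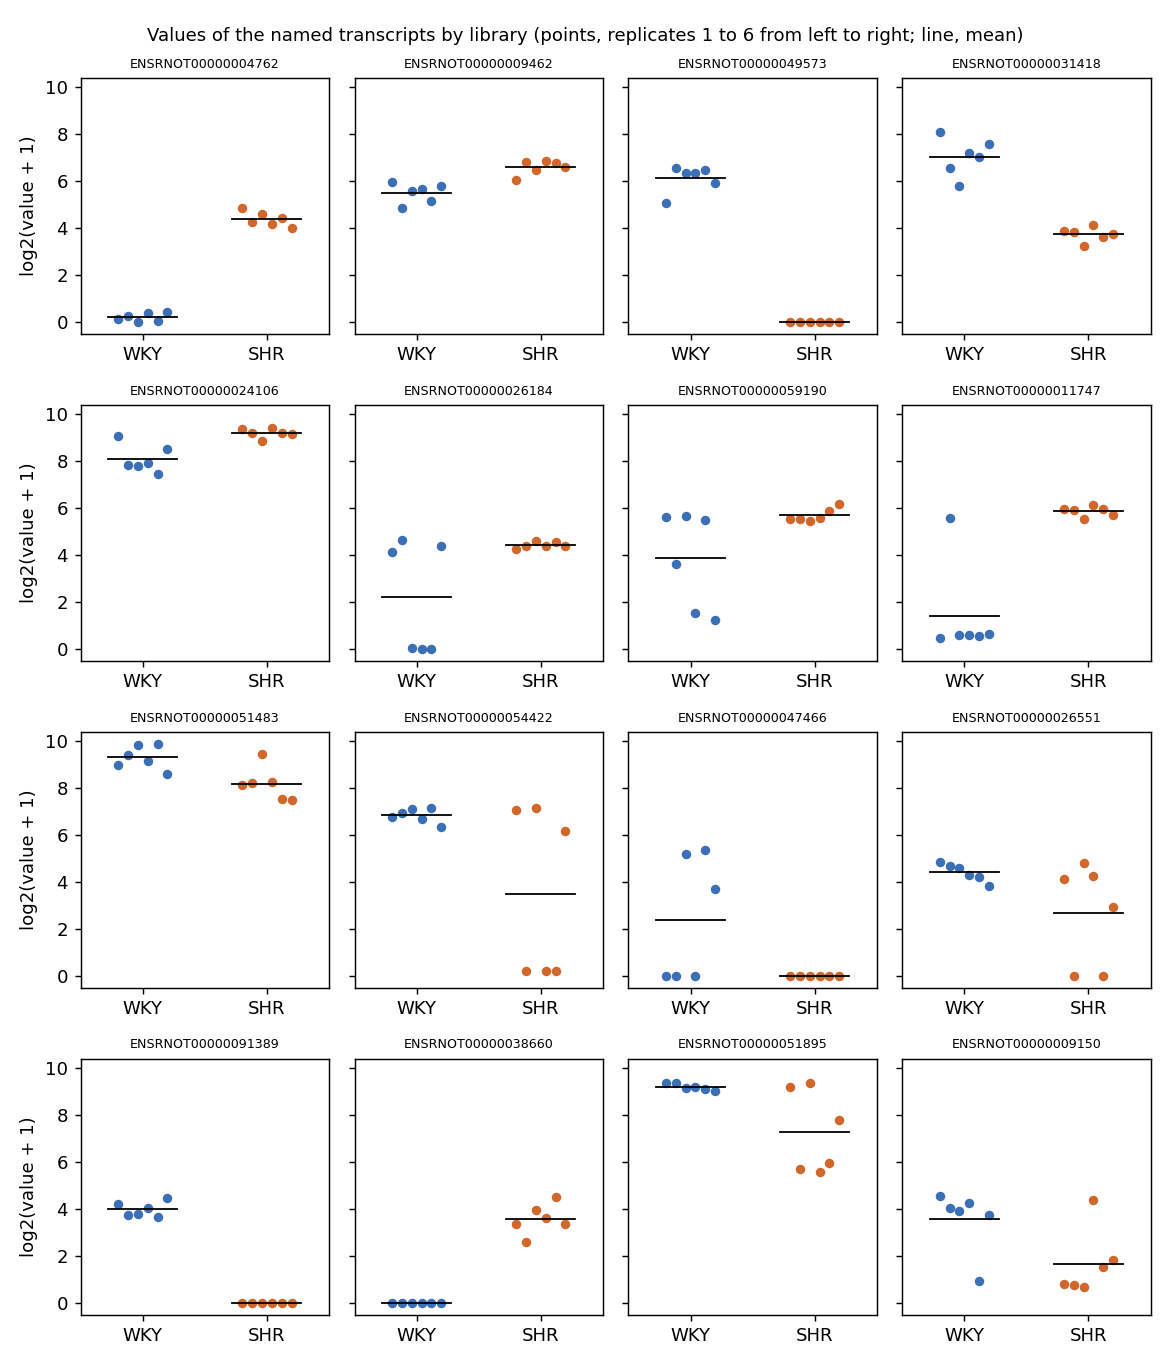
Each panel shows 1 named transcript, with log2(value + 1) on the vertical axis, WKY libraries in blue, SHR libraries in orange, replicates 1 to 6 from left to right in each strain, and the strain mean as a line. Separated groups (ENSRNOT00000004762), a strain listed at 0 throughout (ENSRNOT00000049573) and strains split into high and low libraries (ENSRNOT00000054422) can be told apart.

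Being listed at 0 throughout 1 strain was seen in 4 members, beside 14.1% of the 4005 listed transcripts. Of the 492 listed transcripts with a mean of at least 5, 36 (7.32%) were listed at 0 throughout 1 strain. Besides ENSRNOT00000049573 these were ENSRNOT00000091389, ENSRNOT00000047466 and ENSRNOT00000038660, named after their values were seen. ENSRNOT00000091389 was at 0 in SHR and had values of 11.8 at the lowest, 14.1 at the median and 21.4 at the highest in WKY. ENSRNOT00000038660 was at 0 in WKY and had 5.07, 10.3 and 22.0 in SHR. ENSRNOT00000047466 was at 0 in SHR but was itself split in WKY, where it was listed at 0 in replicates 2 and 4, at 0.0114 in replicate 1, and at 35.8, 40.1 and 12.1 in replicates 3, 5 and 6. Its groups therefore overlapped although 1 strain was at 0 in every library. Of the 158 members, 135 were above 0 in all 12 libraries.

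The margin between strains was small for many of the 71 members without overlap. Among those higher in SHR, the lowest SHR value was a median of 1.68 times the highest WKY value, at least 2 times for 11, and less than 1.2 times for 6. Among those higher in WKY, the lowest WKY value was a median of 1.62 times the highest SHR value, at least 2 times for 14, and less than 1.2 times for 7. These ratios leave out members at 0 throughout 1 strain. The difference was at least 3 times the larger of the 2 within-strain SDs, on the log2 scale, for 20 of the 81 members higher in SHR and for 29 of the 77 higher in WKY. It was smaller than the larger within-strain SD for 17 and 11 members, respectively. The same numbers over all listed transcripts are not given, so these describe the members only.

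In the 87 overlapping members, most comparisons of single libraries had the direction of the means. The selected list favours this, as does taking the direction from the same values. Of the 36 pairs of 1 SHR and 1 WKY library, a median of 31 pairs had that direction, both among the 48 overlapping members higher in SHR and among the 39 higher in WKY. The lowest number was 22 of 36 in members higher in SHR and 24 of 36 in members higher in WKY. For 21 of the 48 and 19 of the 39, leaving out 1 library ended the overlap. Among members higher in SHR, SHR replicate 3 was such a library for 8 and WKY replicate 1 for 7. Among members higher in WKY, WKY replicate 1 was such a library for 11, and each of the other libraries for at most 3. Neither the pairs nor these removals are given over all listed transcripts, so they describe the members only.

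No member of the most abundant band was free of overlap. Of the 64 with a mean from 5 to 10, 28 had no overlap, as did 37 of the 70 from 10 to 50 and 6 of the 13 from 50 to 100. Of the 11 with a mean of at least 100, 0 were without overlap. Their median absolute log2 difference was 1.10, against 1.40, 1.53 and 1.54 in the 3 lower bands in ascending order. With WKY replicate 1 left out, 4 of the 11 had no overlap, with SHR replicate 3 left out 5, and with both left out 8. Such removals can only keep or raise these numbers. Shares by band over all listed transcripts are not given, so the bands are not called particular to the members.

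In these 11 abundant members the same libraries recurred at the ends of each strain. Of the 7 that were higher in SHR, WKY replicate 1 was the highest WKY library in 6 and SHR replicate 3 the lowest SHR library in 6. Of the 4 that were higher in WKY, SHR replicate 3 was the highest SHR library in all 4, and WKY replicate 6 the lowest WKY library in 3. WKY replicate 1 was the highest WKY library in 1 of these 4 and the lowest in 1.

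Values of the most abundant member in each direction show this pattern. ENSRNOT00000024106, named after its values were seen, had the highest mean among members higher in SHR, at 446. Its SHR values ran from 473 in replicate 3 to 692 in replicate 4, with a median of 590.1. Its WKY values ran from 176 in replicate 5 to 365 in replicate 6, apart from 544 in replicate 1, which lay inside the SHR range. ENSRNOT00000051483, also named after its values were seen, had the highest mean of all members, at 496. Its WKY values ran from 388 in replicate 6 to 948 in replicate 5, with a median of 626. Its SHR values were 183 to 307 in 5 libraries and 696 in replicate 3, so that replicate 3 was the sole SHR library inside the WKY range.

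The libraries of a strain differed over the whole set in the same way. Averaged over the 81 members higher in SHR, log2 values were 4.61 ± 0.10 in SHR and 2.99 ± 0.28 in WKY (SD, n = 6 each). WKY replicate 1 was highest of its strain at 3.44, replicate 6 followed at 3.16, and replicate 5 was lowest at 2.63. Averaged over the 77 members higher in WKY, values were 4.69 ± 0.15 in WKY and 2.83 ± 0.06 in SHR (SD, n = 6 each). Here WKY replicates 1 and 6 were lowest of their strain at 4.44 and 4.61, and SHR replicate 3 was highest of its strain at 2.95. No library mean reached the range of the other strain, a separation that the choice of members by direction favours. That choice fixes the order of the strain means.

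**Figure D3:**
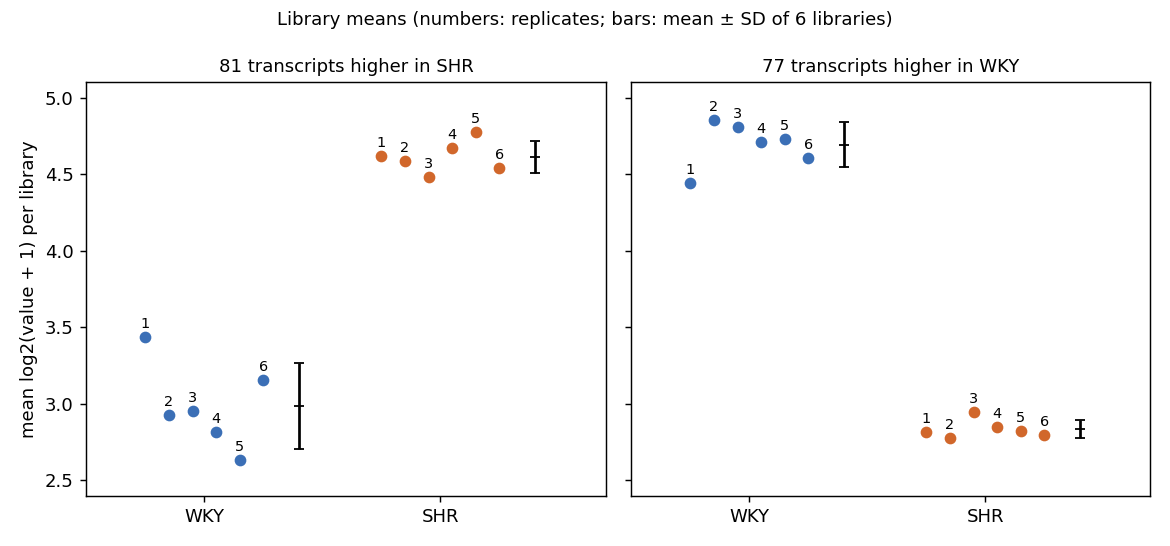
Each point is the mean log2(value + 1) of 1 library over the 81 transcripts higher in SHR (left) or the 77 higher in WKY (right), numbered by replicate, with the mean ± SD of the 6 libraries of each strain beside them. WKY replicate 1 lies nearest to the SHR level in both panels, at 3.44 and 4.44, and the WKY libraries spread more than those of SHR.

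Counted transcript by transcript, the order was uneven. WKY replicate 1 was the highest WKY library for 33 of the 81 members higher in SHR, and replicate 5 was the lowest for 27. In members higher in WKY, replicate 1 was the lowest for 22 of 77 and the highest for 15, and replicate 6 was the lowest for 23, so the displacement of replicate 1 was not shared by all members. SHR replicate 3 was the lowest SHR library for 33 of the 81 members higher in SHR. In the 77 members higher in WKY it was the highest SHR library for 20 and the lowest for 20. Among all 4005 listed transcripts, WKY replicate 1 had 906 at 0 and SHR replicate 3 had 971, within the ranges of 708 to 1037 in WKY and 771 to 971 in SHR, SHR replicate 3 having the most of its strain. The part of these libraries' numbers at 0 in the order of levels was not tested.

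In most members the strain with the lower level had the larger SD, which low outlying libraries favour by construction. The median SD of log2 values within WKY was 0.53 over the 158 members, and within SHR it was 0.38. Over all 4005 listed transcripts these medians were 0.38 and 0.33, and over the 492 with a mean of at least 5 they were 0.62 and 0.44. Among members higher in SHR, the median SD was 0.65 in WKY and 0.33 in SHR, and 59 of 81 had the larger SD in WKY. Among members higher in WKY, the median SD was 0.40 in WKY and 0.48 in SHR, and 44 of 77 had the larger SD in SHR. Without a single library in turn, the median over all members ran from 0.41 to 0.55 in WKY and from 0.33 to 0.41 in SHR. The 0.41 in WKY was the value without WKY replicate 1. Without any other WKY library the WKY median was 0.49 to 0.55. The SHR median was likewise lowest, at 0.33, without SHR replicate 3. The excess of the WKY median therefore rested on replicate 1 only in part, and 0.41 against 0.33 remained without both libraries.

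**Figure D4:**
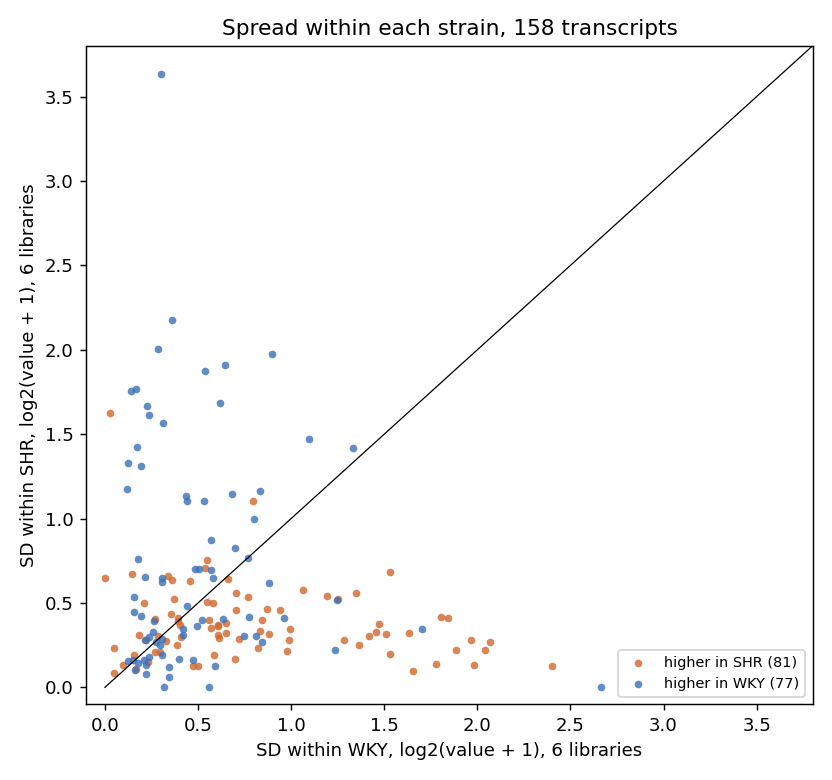
Each point is 1 transcript, with its SD of log2(value + 1) over 6 WKY libraries on the horizontal axis and over 6 SHR libraries on the vertical axis. Transcripts higher in SHR (orange, 81) extend along the WKY axis and those higher in WKY (blue, 77) along the SHR axis, with medians of 0.65 and 0.48 in the lower strain.

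In 48 members the libraries of a strain differed by at least 10 times from lowest to highest, where the highest reached at least 5. This spread occurred within WKY in 26 members, beside 8.94% of the 4005 listed transcripts, and within SHR in 23 members, beside 7.62%. The members' shares were 16.5% and 14.6%, below the 26.2% and 21.7% of the 492 listed transcripts with a mean of at least 5. ENSRNOT00000009150, named after its values were seen, had it in both strains, at 0.895 to 22.8 in WKY and 0.615 to 20.1 in SHR. Of the 26 with the spread in WKY, 23 were higher in SHR, and of the 23 with the spread in SHR, 22 were higher in WKY. This link follows in part from construction, since low libraries pull down the mean of their own strain and a member reaches the mean of 5 through the strain where it is high. In the 23 and 22 members whose lower strain was spread in this way, the median SD in the higher strain was 0.30 and 0.34. In 19 of the 23 and 19 of the 22, at least 1 library of the lower strain reached the range of the higher strain. The lowest value was below 1 in 19 of the 23 and 14 of the 22, and it was exactly 0 in 8 of each.

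ENSRNOT00000054422 had the largest within-strain SD, 3.64 in SHR, and was named after its values were seen. Its SHR values were 0.151, 0.156 and 0.151 in replicates 2, 4 and 5 and 133, 144 and 72.2 in replicates 1, 3 and 6. Its WKY values had a lowest of 81.1, a median of 116 and a highest of 144. The SHR libraries were therefore of 2 kinds, 3 near 0 and 3 near or inside the WKY range, and the log2 difference of -3.34 averages over both kinds. ENSRNOT00000051895 was picked, after its values were seen, for having the same 3 low SHR libraries. Its values were 52.1, 47.0 and 60.8 in SHR replicates 2, 4 and 5, 597 and 656 in replicates 1 and 3, and 222 in replicate 6. Its WKY values lay close together, with a lowest of 530 and a highest of 673.

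In WKY the widest splits among members higher in SHR were of the same form. ENSRNOT00000026184 had values of 0.0228, 0.0145 and 0.00768 in WKY replicates 3, 4 and 5 and of 16.7, 24.03 and 19.96 in replicates 1, 2 and 6, while SHR ran from 18.2 to 23.3. ENSRNOT00000059190 was at 1.87 and 1.38 in WKY replicates 4 and 6, at 11.3 in replicate 2, and at 44.1 to 50.01 in the other 3, against 42.8 to 70.9 in SHR. ENSRNOT00000011747 was at 46.4 in WKY replicate 2 and at 0.399 to 0.550 in the other 5, against 45.6 to 70.1 in SHR. Its single high WKY library lay inside the SHR range. In SHR, ENSRNOT00000026551 was listed at 0 in replicates 2 and 5, at 6.63 in replicate 6, and at 16.7 to 27.2 in the other 3, against 13.4 to 27.7 in WKY. These 4 transcripts were chosen for their spread after the values were seen.

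**Figure D5:**
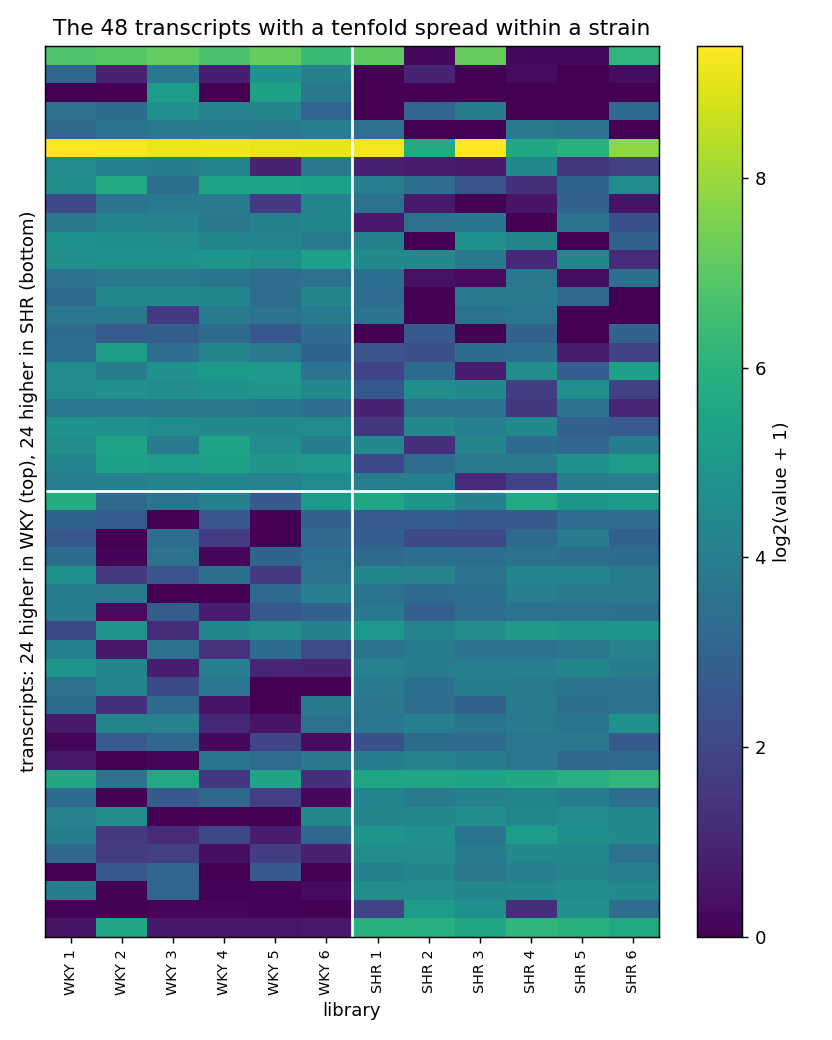
Rows are the 48 transcripts whose highest value within a strain is at least 10 times the lowest, columns are the 12 libraries, and the colour is log2(value + 1). In the 24 rows higher in WKY (top) dark cells lie mostly among the SHR libraries, and in the 24 rows higher in SHR (bottom) mostly among the WKY libraries, in columns that change from row to row.

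Which libraries were low differed between transcripts. Counting as low a value of at most 1 part in 10 of the strain's highest, the 26 members spread within WKY had 19 different sets of low libraries, and the 23 spread within SHR had 19. In WKY, 4 members had 1 low library, 20 had 2 or 3, and 2 had 4 or more. In SHR, 6 members had 1 low library, 15 had 2 or 3, and 2 had 4 or more. The most frequent set was WKY replicates 2 and 4, in 4 members. WKY replicate 4 was among the low libraries in 15 of the 26 members, replicate 5 in 13, replicate 2 in 10, replicates 3 and 6 in 8 each and replicate 1 in 6. Each SHR library was among them in 7 to 10 of the 23. Because genes are not assigned, forms of the same gene may be counted more than once among these members.

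Other transcripts gave comparison values, without a test, since all were taken from lists selected on the same contrast. Of 529 Ensembl transcripts that met the same listing criteria below the mean of 5, 26.7% had no overlap, and the median SDs were 0.34 in WKY and 0.32 in SHR. Of 252 assembled transcripts with a mean of at least 5 and no treated value, 38.5% had no overlap, and 24.6% and 28.6% had the 10-fold spread within WKY and SHR, above the members' shares. Of 38 Ensembl transcripts with a mean of at least 5 that were listed for treated SHR too, 2 had no overlap, and 17 had the 10-fold spread within WKY and 2 within SHR.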

How the data were processed

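Kidney RNA of 18 libraries in 3 groups of 6 was sequenced, and the 12 WKY and SHR libraries were used. Each deposited file gives 1 normalized signal per transcript for 1 library, normalized by the authors in a way that the files leave unnamed. Limma is named in the submitters' processing notes with no version. The aligner, quantifier, build and annotation were not given in the sources used here. Since depth is unknown, no counting intervals are given. Members were Ensembl transcripts listed for WKY and SHR, absent from the SHR+Iso files, with a mean of at least 5 over the 12 libraries. Members, lists and rules were chosen with earlier results of these data known. Because the lists were selected on the strain contrast, no test was run. Differences and SDs are on log2(value + 1), and 2 strains overlap unless every value of 1 lies above every value of the other. The rule for named transcripts took, per direction, the largest difference and the highest mean without overlap. Gene lists could not be used because 0 of 158 IDs matched. The 10-fold spread needed a highest value of at least 5, a limit set after seeing the data. Functions were checked on simulated data. Python 3.11.15 with pandas 2.3.3 and NumPy 2.4.6 was used. Groups came from the sample titles. Alternatives were other thresholds, offsets of 0.1 and 0.01, 2 scalings and each library left out in turn.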

Additional observations from a re-analysis of the deposited data

Results flagged for a closer look

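Single libraries stood apart from the other 5 of their strain in 3 of 36 groups of 6 checked. Chance marks about 1 in 20 groups, but most of these transcripts were chosen after their values were seen, several of them for their spread, so the 3 cannot be set against that rate. For ENSRNOT00000011747, WKY replicate 2 had a value of 46.4 and the other 5 WKY libraries lay at 0.399 to 0.550. For ENSRNOT00000051483, SHR replicate 3 had 696 and the other 5 SHR libraries lay at 183 to 307. For ENSRNOT00000009150, SHR replicate 4 had 20.1 and the other 5 SHR libraries lay at 0.615 to 2.57.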

How the results depend on the processing

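The 81 and 77 members kept their numbers per direction under quantile normalization, under scaling to equal sums and without each library in turn. The selection of the list for strain differences favours this. Members without overlap numbered 31 to 34 higher in SHR and 36 to 38 higher in WKY under the 2 scalings, and 67 of the 71 were also without overlap after quantile normalization. Without 1 library in turn they ranged from 33 to 41 and from 38 to 49, and without WKY replicate 1 and SHR replicate 3 together, an alternative chosen after seeing the data, they were 49 and 52. Removal of libraries can only keep or raise these numbers. Median log2 differences ranged from 1.17 to 1.34 and from -1.64 to -1.53 without 1 library in turn.

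Other limits on the mean moved the numbers because they change which transcripts are members. With a mean of at least 10 there were 94, of which 50 were higher in SHR and 44 in WKY, with 22 and 21 without overlap and higher in SHR and WKY, 12 and 14 with the 10-fold spread within WKY and SHR, and 1 at 0 throughout a strain. With a mean of at least 2 there were 293, of which 148 and 145 were higher in SHR and WKY, 50 and 63 were without overlap, 41 and 39 had the 10-fold spread, and 8 were at 0 throughout a strain. With no limit there were 687, of which 339 and 348 were higher in SHR and WKY, with median log2 differences of 0.85 and -0.89. Of the 687, 101 and 111 were without overlap, beside 12.8% and 15.6% of the 4005 listed transcripts. The 10-fold spread was seen in 49 and 45, beside 8.94% and 7.62%, and 35 were at 0 throughout a strain, beside 14.1%. Such shares are not given for the other alternatives in this paragraph, so those numbers describe the members only. With a median of at least 5, 2 were at 0 throughout a strain. A 5-fold spread was seen in 45 members within WKY and 29 within SHR. Without the minimum of 5 on the highest value, 29 and 26 members had the 10-fold spread. All 224 alternative differences of the 16 named transcripts kept their direction, and 4, all with an offset of 0.1, moved by more than the spread between libraries. The kept directions are no support, because the choice of these transcripts favours them. Where the strains do not overlap, no offset or left-out library can reverse the direction. No paired analysis was possible because the replicate numbers mark no shared animal or batch in the labels and no result comes from a test.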
